A study of Homo sapiens with 3 samples.

Results

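The genes described here encode 42 subunits of chromatin-remodelling and chromatin-modifying complexes: 16 of SWI/SNF, 1 of ISWI, 5 of the CHD family, 4 of Polycomb repressive complex 2 (PRC2), 15 of Polycomb repressive complex 1 (PRC1) and 1 of the Polycomb deubiquitinase PR-DUB. Members were matched by gene name, and each name was found at 1 locus in every library, among 52464 loci that could be matched between libraries. Of the 42, 39 had a mean of at least 1 FPKM (fragments scaled to transcript length and to library size) over the libraries and are called measured below. SMARCC2, PBRM1 and PHC1 were listed at 0 in all 3 libraries. The libraries came from PLC, an established human hepatocellular carcinoma line, collected 48 hours after infection with virus that carried short hairpin RNAs. There was 1 library per group: control (a non-targeting hairpin), shDIS3L2 (hairpins against DIS3L2, an exoribonuclease) and shHNRNPU (hairpins against HNRNPU, a nuclear RNA-binding protein). All 3 groups therefore share infection and a hairpin, and the labels do not say whether 1 hairpin or several made up a knockdown group.

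SWI/SNF complexes use the ATPase SMARCA4 or SMARCA2 to slide or evict nucleosomes and so open chromatin at enhancers and promoters. They come in forms defined by extra subunits: BAF (ARID1A or ARID1B), PBAF (ARID2, PBRM1, BRD7) and a non-canonical form (BRD9). CHD proteins are ATP-dependent remodellers with chromodomains, and CHD3 and CHD4 are the motors of the NuRD deacetylase complex. Polycomb complexes keep genes silent: PRC2 methylates histone H3 at lysine 27, and PRC1 ubiquitinates histone H2A. Subunits of both the SWI/SNF and the Polycomb group are often altered in cancer, ARID1A and ARID2 among them in hepatocellular carcinoma.

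The estimated depth was 22600000 fragments in control, 18000000 in shDIS3L2 and 19700000 in shHNRNPU, from 88, 92 and 82 single-exon genes. DIS3L2, merged with AC068134.10, stood at 7.61, 3.23 and 11.2 FPKM in control, shDIS3L2 and shHNRNPU. HNRNPU, merged with its antisense gene, was at 178, 232.5 and 33.5 FPKM, so each was lowest in the library labelled for it. The bounds of both loci differed between libraries. Levels of hepatocyte markers varied widely. SERPINA1 was at 11440, 2865 and 6710 FPKM and HNF4A at 42.3, 29.8 and 45.8. ALB was at only 11.8, 0.856 and 5.21 FPKM, and TTR at 4.09, 1.32 and 2.40. The T cell marker CD3E was listed at 0 in each library. The blood marker CD68 is merged with EIF4A1 and other genes (1507, 1432 and 1681 FPKM), so it could not be read. A range in parentheses after an FPKM is the interval deposited with it, whose level the headers do not give. For a measured member its upper bound lay a median of 10.4% above the value in control, 9.66% in shDIS3L2 and 11.3% in shHNRNPU. They describe how well 1 library fixes a value, not how cultures vary, and without a second library per group no difference could be checked in replicates and no p-value is given. Less RNA per cell and fewer cells of a kind cannot be told apart in these bulk libraries. Log2 ratios are of FPKM + 1. The size rule called a gene whose log2 ratio reached 1 or -1 with intervals that did not overlap, and the interval rule called any gene with intervals that did not overlap.

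By the size rule without rescaling, these genes were called about as often as other loci or less often, and the calls fell on single subunits. In shDIS3L2, 4 of 39 measured members were higher by the size rule (8.96% of 11734 loci were) and 1 was lower (7.59% of loci). The 4 were CHD1, CHD8, SUZ12 and BMI1, and the lower one was SMARCD3, listed at 0. In shHNRNPU, 3 were higher (ARID1A, CHD1 and CHD2, against 8.33% of loci) and 3 lower (SMARCD1, SMARCD3 and BMI1, against 7.43%). By the interval rule, 10 members were higher and 9 lower in shDIS3L2 (32.8% and 25.4% of loci), and 17 higher and 11 lower in shHNRNPU (35.0% and 23.5% of loci). The median log2 ratio over the 39 was 0.15 in shDIS3L2 and 0.17 in shHNRNPU, beside 0.09 and 0.12 over the 11734 loci. Median-of-ratios rescaling takes 0.11 and 0.16 off log2 ratios in shDIS3L2 and shHNRNPU. After it, 3 members were higher and 2 lower in shDIS3L2, beside 7.52% and 8.92% of loci. In shHNRNPU, 0 were then higher and 7 lower, the latter 17.9% of members beside 9.15% of loci (6.47% of loci were higher). The comparisons with control share that 1 library.

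**Figure D1:**
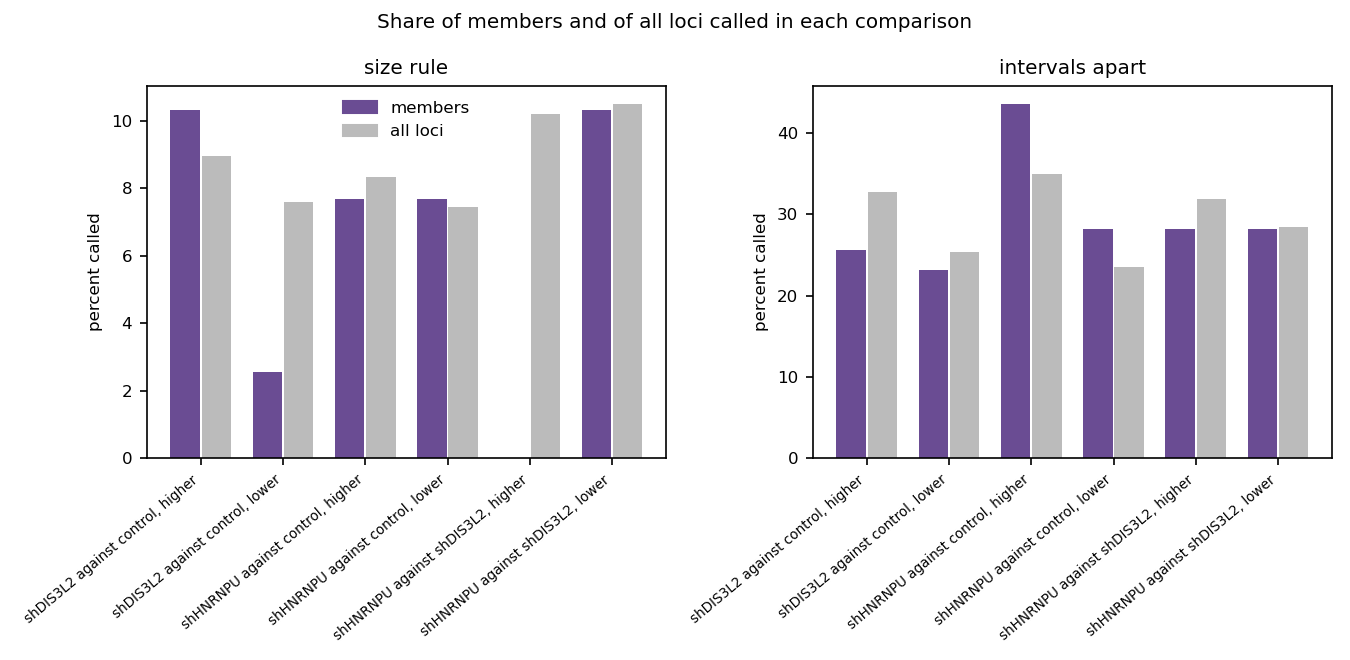
Percent of the 39 measured members (purple) and of all 11734 loci with a mean of at least 1 FPKM (grey) called higher or lower in each comparison, by the size rule (left) and the interval rule (right). By intervals, 43.6% of members were higher in shHNRNPU than in control, the tallest bar, and 0 members were higher by the size rule in shHNRNPU against shDIS3L2.

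The 250 bases before the start of CHD1, SUZ12, ARID1A and BMI1 are shown (RefSeq, GRCh38.p14, 5′ to 3′ on the gene's strand). These 4 were picked from the members called by the size rule against control. CHD2, CHD8, SMARCD1 and SMARCD3 were called as well and are not shown. Capitals mark matches, on either strand and with overlaps counted, to 8 motifs. The CCAAT box was searched under its own letters, and the GC box as GGGCGG. The motif bound by ETS factors was searched as CCGGAA, while the TATA box used the letters TATAAA. The E-box searched was the palindrome CACGTG, and the core motif of E2F factors was TTTCCCGC. The cyclic AMP response element (CRE) was written TGACGTCA, and the NRF1 core was searched as well. The windows are chr5:98929008-98929257 (minus strand) for CHD1, chr17:31936757-31937006 (plus) for SUZ12, chr1:26695765-26696014 (plus) for ARID1A and chr10:22320849-22321098 (plus) for BMI1.
CHD1: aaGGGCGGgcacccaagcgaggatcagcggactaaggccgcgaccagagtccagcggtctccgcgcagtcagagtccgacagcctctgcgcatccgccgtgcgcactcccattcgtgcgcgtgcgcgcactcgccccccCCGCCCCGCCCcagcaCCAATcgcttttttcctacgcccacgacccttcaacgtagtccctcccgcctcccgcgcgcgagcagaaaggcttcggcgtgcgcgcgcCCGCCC
SUZ12: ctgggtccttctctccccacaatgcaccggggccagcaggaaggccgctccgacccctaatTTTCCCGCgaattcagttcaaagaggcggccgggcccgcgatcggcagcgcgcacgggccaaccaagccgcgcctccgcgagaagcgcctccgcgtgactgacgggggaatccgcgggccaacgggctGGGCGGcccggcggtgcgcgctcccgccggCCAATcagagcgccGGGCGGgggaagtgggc
ARID1A: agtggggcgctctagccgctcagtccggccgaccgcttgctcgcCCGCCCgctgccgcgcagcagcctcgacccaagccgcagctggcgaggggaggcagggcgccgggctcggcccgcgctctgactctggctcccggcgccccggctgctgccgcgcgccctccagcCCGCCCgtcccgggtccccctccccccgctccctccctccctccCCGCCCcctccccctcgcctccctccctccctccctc
BMI1: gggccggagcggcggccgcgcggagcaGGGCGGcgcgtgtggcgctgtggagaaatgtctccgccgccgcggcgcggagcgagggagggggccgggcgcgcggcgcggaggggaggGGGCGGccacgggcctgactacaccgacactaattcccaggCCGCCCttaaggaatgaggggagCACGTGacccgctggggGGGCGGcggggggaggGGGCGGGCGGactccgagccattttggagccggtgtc

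All 4 windows were rich in G and C, at 70.8%, 72.8%, 80.4% and 76.8% for CHD1, SUZ12, ARID1A and BMI1. GC boxes numbered 4, 2, 3 and 6 in the same order. CHD1 and SUZ12 each held 1 CCAAT match, SUZ12 held the only E2F core of these windows and BMI1 the only E-box. Among 34943 promoters of the same length, 42.5% held a GC box, 32.0% a CCAAT box, 14.5% the ETS core, 10.8% a TATA box, 6.32% the E-box, 1.63% the CRE, 1.39% the E2F core and 1.02% the NRF1 core. Windows were matched for 36 of the 42 members, of which 24 held a GC box and 13 CCAAT. The median GC content was 67.2% over these 36 and 58.0% over all promoters. These matches describe the letters only.

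Within SWI/SNF, subunits of the same complex stood on opposite sides of control, most clearly in shHNRNPU, where 5 of 14 measured members were higher and 7 lower by the interval rule. Over all loci 35.0% were higher and 23.5% lower. SMARCD1, an accessory subunit that links the complex to transcription factors (chromosome 12, 50478755 to 50494495, hg19), was at 44.9 FPKM (42.8 to 47.0) in control, with 33.8 (31.8 to 35.8) in shDIS3L2 and 12.9 (11.6 to 14.2) in shHNRNPU. The 3 intervals did not overlap, and log2 ratios against control were -0.40 and -1.72. Its paralog SMARCD2 was at 39.7 FPKM (37.4 to 41.9), 33.4 (31.1 to 35.8) and 32.4 (30.1 to 34.7), lower than control in both knockdowns by much less. The paralog SMARCD3 was at 8.28 FPKM (6.99 to 9.56) in control and listed at 0 in both knockdowns, so no fold is given. The upper bounds of such zeros are 0 as well, so the interval rule says nothing about how firm such a 0 is.

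ARID1A, the DNA-binding subunit that defines BAF (chromosome 1, 27022524 to 27108595), had 9.47 FPKM (8.76 to 10.2) in control, against 15.1 (14.0 to 16.2) in shDIS3L2 and 21.7 (20.5 to 22.9) in shHNRNPU. It was higher in both knockdowns with no overlap of intervals, at log2 ratios of 0.62 and 1.12, and 0.97 in shHNRNPU after rescaling. ARID1B, its alternative in BAF, was at 5.02 FPKM (4.48 to 5.57), 5.50 (4.98 to 6.03) and 8.20 (7.53 to 8.86), above control only in shHNRNPU by the interval rule. SMARCC1, a scaffold subunit, was at 14.5 FPKM (13.5 to 15.5), 18.4 (16.9 to 19.8) and 24.95 (23.5 to 26.4), again higher in both knockdowns. ACTL6A, the actin-related subunit, was above control in shHNRNPU only (16.7, 17.4 and 23.9 FPKM).

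The ATPase SMARCA4 and the bromodomain subunits BRD7 and BRD9 were lower than control in shHNRNPU. SMARCA4, the main ATPase, was at 7.85 FPKM (6.74 to 8.96) in control, against 9.96 (8.64 to 11.3) in shDIS3L2 and 4.74 (3.65 to 5.83) in shHNRNPU, lowest in shHNRNPU with no overlap with either other library. BRD7, a bromodomain subunit of PBAF, was at 20.2 FPKM (18.7 to 21.8), 23.2 (21.3 to 24.99) and 9.63 (8.34 to 10.9). Its log2 ratio of -0.997 in shHNRNPU was just short of the size rule, and was -1.14 after rescaling. The bounds of the BRD7 locus differed between libraries. BRD9, the bromodomain subunit of non-canonical BAF, was at 16.3 FPKM (14.55 to 18.01), 26.5 (23.96 to 29.02) and 11.1 (9.28 to 12.9), higher than control in shDIS3L2 and lower in shHNRNPU. Its locus is merged with ZDHHC11 and ZDHHC11B, whose RNA cannot be told apart from it. SMARCE1, a DNA-bending core subunit merged with KRT222, was at 40.8 FPKM (38.1 to 43.5), 29.2 (26.6 to 31.8) and 22.2 (20.2 to 24.1), lower in both knockdowns. The core subunit SMARCB1 had the highest level in control of all members, at 123 FPKM (118 to 128), with 122 (116 to 128) and 138 (132 to 144) in shDIS3L2 and shHNRNPU. Its interval was above control in shHNRNPU at 1.12 times, but not after rescaling.

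Some SWI/SNF members could not be read with any precision. SMARCA2, the alternative ATPase, was at 2.50 FPKM in control with an interval from 0 to 10.6, which covers its 2.996 and 1.89 FPKM in shDIS3L2 and shHNRNPU. ARID2, the PBAF counterpart of ARID1A, was at 1.69 FPKM (0.632 to 2.74), 3.12 (1.84 to 4.399) and 3.63 (2.13 to 5.13), with overlapping intervals throughout. SMARCC2 and PBRM1 were listed at 0 in each library. All 4 members listed at 0 somewhere overlap another locus of at least 1 FPKM (MYL6 for SMARCC2, CHPF2 for SMARCD3, GNL3 for PBRM1 and M6PR for PHC1), against 7 of the other 38. Over loci with a mean of at least 1 FPKM, 72.9% of the 819 listed at 0 in a library overlapped another such locus, against 29.5% of the 10915 above 0 in every library. Whether these zeros reflect the estimate or the RNA was not tested.

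**Figure D2:**
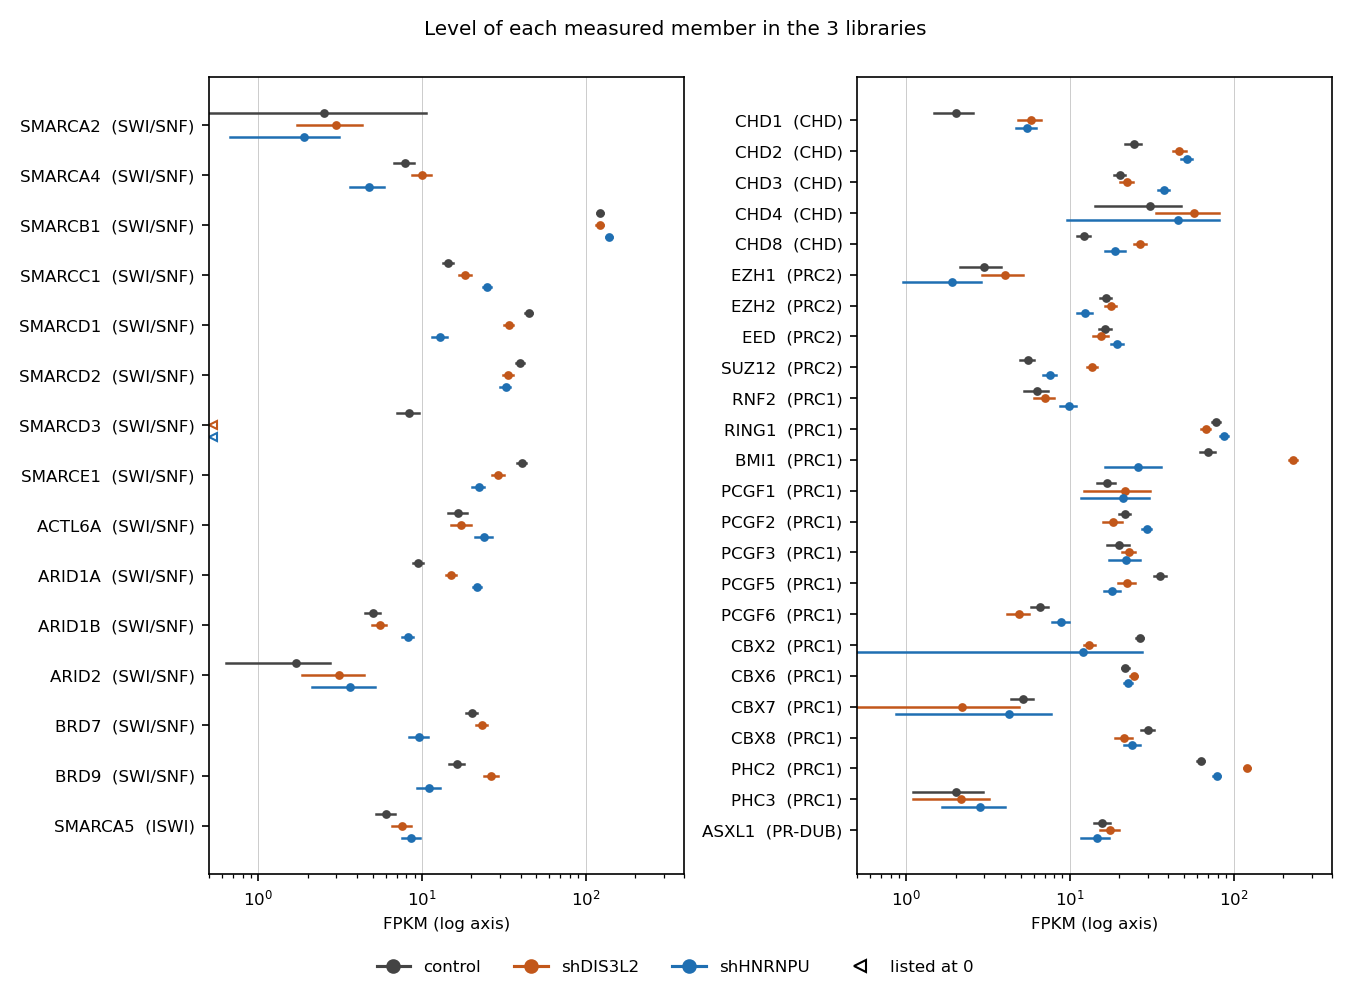
FPKM of the 39 measured members on a log axis, 1 point per library with its deposited interval as a line, and open triangles at the left edge where a gene is listed at 0. SMARCD1 stands at 44.9 FPKM in control and 12.9 in shHNRNPU, BMI1 spreads from 26.2 to 231, and lines that reach the left edge (SMARCA2, CBX2, CBX7) have a lower bound of 0.

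All 5 CHD members had log2 ratios above 0 in both knockdowns, also after rescaling, and 3 of 5 in shDIS3L2 and 4 of 5 in shHNRNPU were higher by the interval rule. Over all loci 32.8% and 35.0% were higher by that rule. Without rescaling, 64.9% of loci spanning at least 50 kb and 51.9% of shorter ones had a log2 ratio above 0 in shDIS3L2. In shHNRNPU these shares were 60.5% and 58.1%. The median log2 ratios of the 5 were 0.91 and 0.86. CHD relatives outside the list of 42 did not all share this direction. CHD1L, merged with RP11-337C18.10 and RP11-337C18.8, was at 25.8 FPKM (23.9 to 27.7), 14.2 (12.6 to 15.8) and 20.04 (18.3 to 21.8), lower than control in both knockdowns. CHD7 was above control in shDIS3L2 by the interval rule (log2 ratio 0.87). CHD6 overlapped control in both knockdowns, with a log2 ratio of -0.09 in shHNRNPU. CHD5 and CHD9 had means of 0.21 and 0.861 FPKM, below the filter of 1 FPKM, with lower bounds of 0 in each library. Their log2 ratios of 0.06 and -1.04 in shHNRNPU therefore say little. These relatives were named after their values were seen. CHD1, which acts on nucleosomes of transcribed genes (chromosome 5, 98190838 to 98264285), was at 2.01 FPKM (1.48 to 2.54) in control, with 5.75 (4.79 to 6.70) in shDIS3L2 and 5.45 (4.69 to 6.21) in shHNRNPU. Both knockdowns were above control without overlap and overlapped each other, at 2.86 and 2.71 times control and log2 ratios of 1.17 and 1.10. CHD2, its closest relative (chromosome 15, 93425905 to 93571237), was at 24.5 FPKM (21.8 to 27.2), 46.7 (42.6 to 50.9) and 51.8 (47.7 to 56.0). This locus is merged with AC013394.2 and the microRNA gene MIR3175. Its log2 ratios of 0.91 and 1.05 lie on both sides of the size rule, and both knockdowns overlapped each other again. After rescaling, the ratios in shHNRNPU of CHD1 (0.98) and CHD2 (0.90) no longer passed the size rule, while that of CHD1 in shDIS3L2 did (1.09).

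CHD8, a remodeller that binds beta-catenin (chromosome 14, 21853339 to 21924285), was at 12.2 FPKM (11.0 to 13.3) in control, against 26.9 (24.5 to 29.3) in shDIS3L2 and 19.0 (16.4 to 21.6) in shHNRNPU. The 3 intervals were apart, with shDIS3L2 highest at 2.22 times control, a log2 ratio of 1.09 that became 0.98 after rescaling. CHD3 was at 20.2 FPKM (18.5 to 21.8), 22.3 (20.2 to 24.5) and 37.4 (34.3 to 40.4), above both other libraries in shHNRNPU. CHD4, the other NuRD motor, had wide intervals: 30.9 FPKM (14.2 to 47.7), 57.6 (33.6 to 81.5) and 45.65 (9.61 to 81.7), all overlapping. The locus bounds of CHD1, CHD2, CHD3 and CHD8 differed between libraries, while 29 of the 42 members had the same bounds in all 3. Bounds also differed for SUZ12, BRD7, ARID1B, EZH1, PCGF1, PCGF6, CBX2, CBX8 and ASXL1. Whether differing bounds moved a value was not tested. SMARCA5, the ISWI ATPase that spaces nucleosomes, was at 6.004 FPKM (5.21 to 6.801), 7.53 (6.52 to 8.53) and 8.59 (7.51 to 9.66), and passed the interval rule in shHNRNPU, though not after rescaling.

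**Figure D3:**
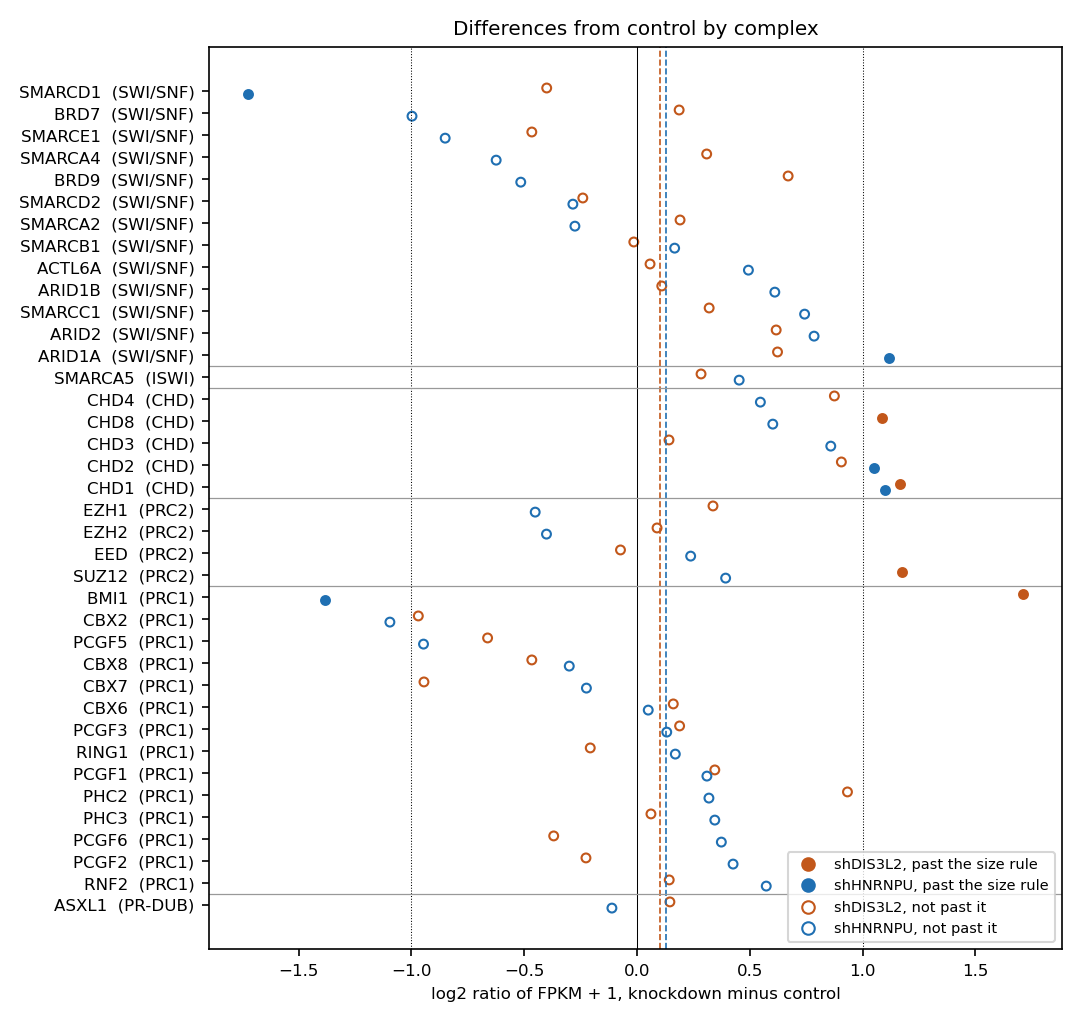
Log2 ratio of FPKM + 1 of each knockdown against control for the 38 members above 0 in every library, grouped by complex (grey lines), with filled points past the size rule, dotted lines at -1 and 1 and dashed lines at the median of all loci (0.10 and 0.13). All 10 CHD points lie right of 0, and BMI1 has its points on opposite sides at 1.71 and -1.38.

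In PRC2, the scaffold differed from control in shDIS3L2 and the methyltransferases overlapped control there. SUZ12, which holds the catalytic core together (chromosome 17, 30264037 to 30328064), was at 5.51 FPKM (4.97 to 6.04) in control, with 13.7 (12.6 to 14.7) in shDIS3L2 and 7.55 (6.87 to 8.22) in shHNRNPU. The shDIS3L2 library stood apart at 2.48 times control (log2 ratio 1.17, and 0.39 in shHNRNPU), and the 3 intervals did not overlap. The bounds of the SUZ12 locus differed between libraries. EZH2, the methyltransferase of dividing cells, was at 16.6 FPKM (15.4 to 17.8), 17.7 (16.3 to 19.1) and 12.3 (11.1 to 13.6), lower in shHNRNPU than in either other library. EZH1, its paralog of resting cells, was at 2.98 FPKM (2.14 to 3.81), 4.02 (2.89 to 5.15) and 1.91 (0.955 to 2.86), and both knockdowns overlapped control. EED, which reads the methyl mark, was at 16.4 FPKM (15.0 to 17.7), 15.5 (13.9 to 17.1) and 19.5 (17.8 to 21.1), above control in shHNRNPU by the interval rule at a ratio of 1.19 but not after rescaling.

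Among members above 0 in every library, the widest contrast was at the BMI1 locus, with opposite signs in the 2 knockdowns. BMI1 encodes a PCGF subunit of canonical PRC1 that stimulates the ligase. Its locus (chromosome 10, 22604903 to 22620413) is merged with COMMD3, the gene just upstream, and the read-through COMMD3-BMI1, in each library. It was at 69.8 FPKM (62.6 to 77.1) in control, against 231 (218 to 244) in shDIS3L2 and 26.2 (16.3 to 36.1) in shHNRNPU. None of these intervals overlapped: shDIS3L2 was at 3.31 times control (log2 ratio 1.71) and shHNRNPU at 0.375 times (-1.38). The value is that of the merged locus, and which of BMI1, COMMD3 or the read-through it follows was not tested, since FPKM per gene do not separate them. The BMI1 promoter printed above belongs to the BMI1 start only.

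The other PCGF subunits differed less than the BMI1 locus. PCGF5 was at 35.8 FPKM (32.6 to 38.9) in control, with 22.2 (19.7 to 24.8) in shDIS3L2 and 18.1 (16.1 to 20.1) in shHNRNPU, lower in both knockdowns, with log2 ratios of -0.66 and -0.95 (-1.10 in shHNRNPU after rescaling). PCGF6 was at 6.57 FPKM (5.77 to 7.37), 4.86 (4.10 to 5.63) and 8.81 (7.80 to 9.81), lower than control in shDIS3L2 and higher in shHNRNPU by the interval rule, the latter not after rescaling. PCGF2 was above control in shHNRNPU only (21.7, 18.4 and 29.4 FPKM), and PCGF1 and PCGF3 overlapped control in both. Of the summed FPKM of PCGF1, PCGF2, PCGF3, PCGF5 and PCGF6, PCGF5 made up 35.5% in control, 24.7% in shDIS3L2 and 18.2% in shHNRNPU. The sum itself was 101, 90.0 and 99.3 FPKM.

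Of the ligase subunits, RING1 was at 78.1 FPKM (73.8 to 82.4), 67.5 (63.4 to 71.6) and 88.0 (83.1 to 92.9), lower than control in shDIS3L2 and higher in shHNRNPU by the interval rule, the latter at 1.13 times and not after rescaling. RNF2, the other ligase subunit, was at 6.27 FPKM (5.23 to 7.32), 7.03 (6.055 to 8.004) and 9.82 (8.73 to 10.9), above both others in shHNRNPU at 1.57 times control. Among the PHC subunits, which let PRC1 assemble into larger bodies, PHC2 was at 62.9 FPKM (59.9 to 65.9), 121 (116 to 126) and 78.7 (74.9 to 82.5). It was higher in both knockdowns, most in shDIS3L2 at 1.92 times control, a log2 ratio of 0.93. PHC2 is merged with the microRNA gene MIR3605. PHC3 stayed between 2.02 and 2.83 FPKM with overlapping intervals, and PHC1 was listed at 0 throughout.

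CBX proteins read methylated histone H3 for canonical PRC1. CBX2 (77751931 to 77762166) and CBX8 (77765931 to 77775681) lie 3.77 kb apart on chromosome 17. CBX2 was at 26.7 FPKM (25.3 to 28.1) in control, against 13.1 (12.1 to 14.2) in shDIS3L2 and 11.97 in shHNRNPU. The shDIS3L2 value lies apart from control at a log2 ratio of -0.97, just short of the size rule. The shHNRNPU interval of CBX2 runs from 0 to 27.5, so its ratio of -1.09 passed neither rule, though it passed both after rescaling (-1.24). CBX8 was at 29.8 FPKM (27.2 to 32.5), 21.3 (18.8 to 23.9) and 24.0 (21.4 to 26.7), lower in both knockdowns by the interval rule.

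CBX6 was at 21.9 FPKM (20.8 to 22.9), 24.6 (23.3 to 25.8) and 22.7 (21.5 to 23.9), above control in shDIS3L2 at 1.12 times but not after rescaling. CBX7, merged with the pseudogene COX5BP7, was at 5.15 FPKM (4.36 to 5.95), 2.199 (0 to 4.85) and 4.27 (0.868 to 7.67), with overlapping intervals. Of the summed FPKM of CBX2, CBX6, CBX7 and CBX8, CBX2 made up 32.0% in control, 21.5% in shDIS3L2 and 19.0% in shHNRNPU. The sum was 83.5, 61.2 and 62.9 FPKM. ASXL1, the cofactor that activates the deubiquitinase BAP1 in PR-DUB, was at 15.8 FPKM (13.9 to 17.6), 17.6 (15.2 to 19.9) and 14.5 (11.7 to 17.4), and overlapped control in both knockdowns.

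**Figure D4:**
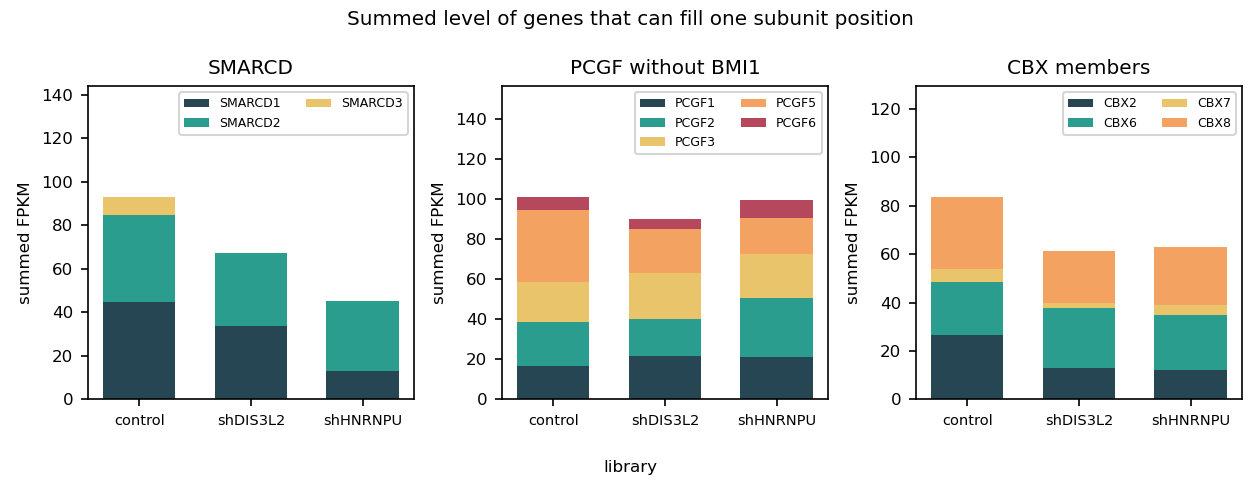
Summed FPKM of genes that can fill one position of a complex in each library, stacked by gene, for SMARCD (SWI/SNF), PCGF without the merged BMI1 locus (PRC1) and the CBX members (PRC1). The SMARCD stack stands at 92.8 FPKM in control, 67.2 in shDIS3L2 and 45.3 in shHNRNPU, with SMARCD3 listed at 0 in both knockdowns, and the CBX sum stands at 83.5, 61.2 and 62.9 FPKM.

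Paralogs that compete for a position were compared as a ratio of FPKM within each library, which does not depend on scaling between libraries. Of 8 pairs chosen, 7 had values, and 6 of their 14 comparisons with control had an interval that excluded 1. The ratio of SMARCD1 to SMARCD2 was 1.13 (1.05 to 1.22) in control, with 1.01 (0.922 to 1.11) in shDIS3L2 and 0.398 (0.351 to 0.451) in shHNRNPU. It was the 1 comparison that differed by at least 2-fold, with the ratio in shHNRNPU at 0.351 times (0.304 to 0.407) that in control. ARID1A to ARID1B went from 1.88 (1.65 to 2.15) in control to 2.75 (2.44 to 3.10) and 2.65 (2.40 to 2.92), higher in both knockdowns. RNF2 to RING1 was 0.0803 (0.0674 to 0.0958) in control, against 0.104 (0.0895 to 0.121) in shDIS3L2 and 0.112 (0.0986 to 0.126) in shHNRNPU. CBX2 to CBX8 was 0.895 (0.807 to 0.993) in control and 0.617 (0.535 to 0.711) in shDIS3L2, and in shHNRNPU its interval of 0.136 to 1.83 covered both.

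For the remaining pairs the interval of the difference from control included 1. EZH2 exceeded EZH1 by 5.58 times (4.17 to 7.47) in control, with 4.41 (3.29 to 5.90) in shDIS3L2 and 6.46 (3.88 to 10.8) in shHNRNPU. SMARCA4 exceeded SMARCA2 by 3.14, 3.32 and 2.51 times, but in control with an interval of 0.123 to 80.2. That interval is approximate, since the deposited lower bound of SMARCA2 in control is 0. CHD4 to CHD3 was 1.54 (0.889 to 2.65), 2.58 (1.68 to 3.95) and 1.22 (0.552 to 2.70).

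**Figure D5:**
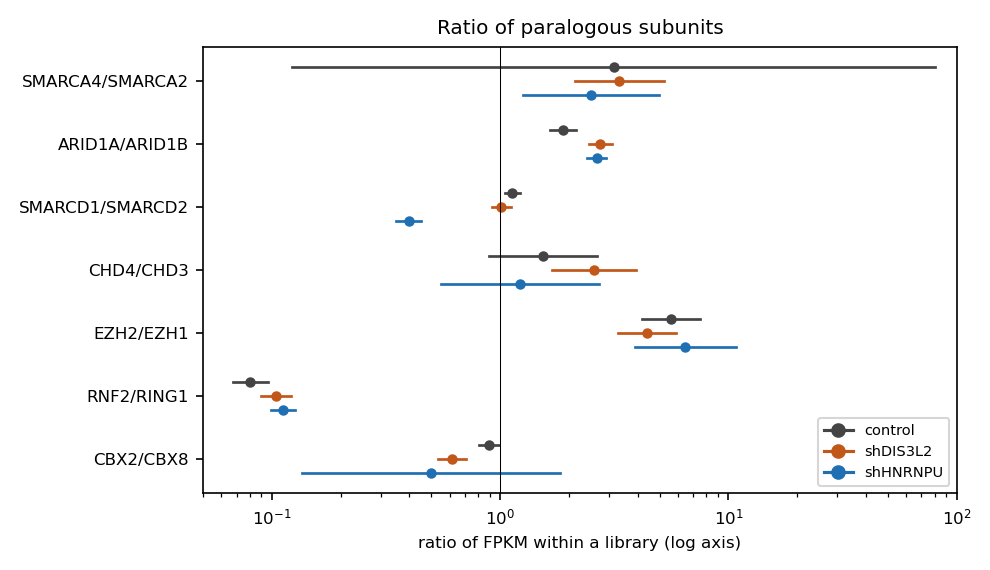
Ratio of FPKM of 7 paralog pairs within each library on a log axis, with points for the ratio and lines for the interval built from the deposited intervals of both genes. SMARCD1/SMARCD2 stands at 0.398 in shHNRNPU against 1.13 in control, and the SMARCA4/SMARCA2 interval in control spans 0.123 to 80.2.

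The knockdowns were also set against each other, a comparison that leaves out the control library. In shHNRNPU against shDIS3L2, 0 of 39 members were higher by the size rule (10.2% of loci) and 4 were lower (10.5%): BMI1 at a log2 ratio of -3.09, SMARCD1 at -1.32, and BRD7 and BRD9 at -1.18 each. By the interval rule 11 were higher and 11 lower (31.9% and 28.4% of loci), and the median was -0.04 beside 0.03 over all loci. The ATPase SMARCA4 (-0.93), EZH1 (-0.79), SUZ12 (-0.78) and PHC2 (-0.61) were among the lower ones, and PCGF6 (0.74), CHD3 (0.72) and PCGF2 (0.65) among the higher. Of PRC2, 3 of 4 members were lower and EED (0.31) was higher.

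The direction of a difference sat unevenly with locus span in shDIS3L2. Spans are those of the control library, and a merged locus such as BRD9 (182 kb) counts with all its merged genes. Of 19 members above 0 that span at least 50 kb, 18 had a log2 ratio above 0 in shDIS3L2, with PCGF5 the exception, against 8 of 19 shorter ones. Over all loci above 0 these shares were 64.9% and 51.9%. After rescaling, the longer EZH2 (-0.01) and PHC3 (-0.01) and the shorter ACTL6A (-0.05) also fell below 0. The shares of loci were not computed after rescaling. Medians for the longer and shorter members were 0.31 and -0.07 in shDIS3L2, beside 0.21 and 0.03 over loci. In shHNRNPU 12 and 11 of 19 had a ratio above 0, beside 60.5% and 58.1% of loci. The split at 50 kb was made with these values at hand, and no test was made of it.

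A list of 65 further subunits of these complexes was examined the same way, of which 59 were measured. In shDIS3L2, 4 were higher and 3 lower by the size rule, and in shHNRNPU 4 and 2, each count of 4 with SS18L1, described last. These are 6.78% and 5.08% of the 59 in shDIS3L2 and 6.78% and 3.39% in shHNRNPU, all below the shares of loci given above. In shHNRNPU against shDIS3L2, 9 were higher (15.3%, beside 10.2% of loci) and 5 lower (8.47%, beside 10.5%). Several NuRD subunits that work with CHD3 and CHD4 were among them. Of 11 such subunits, 1 (MTA1) was higher and 4 were lower by the size rule in that comparison. By the interval rule 3 were higher and 5 lower (31.9% and 28.4% of loci). MTA1, merged with TEX22, was at 57.4, 33.2 and 73.7 FPKM in control, shDIS3L2 and shHNRNPU. MBD2, which binds methylated DNA, was at 20.2 FPKM (15.8 to 24.6) in control, against 86.9 (76.6 to 97.1) in shDIS3L2 and 23.2 (14.9 to 31.6) in shHNRNPU, high in shDIS3L2 alone. MTA3, a scaffold of NuRD, followed the same order at 37.8 FPKM (35.6 to 40.1), 89.9 (83.7 to 96.2) and 34.55 (32.2 to 36.9). The deacetylase HDAC1 was at 124 FPKM (118 to 130), 125 (119 to 131) and 59.4 (55.9 to 62.95), low in shHNRNPU alone at a log2 ratio of -1.04. HDAC2 was at 44.4 FPKM (41.4 to 47.4), 66.2 (62.2 to 70.1) and 22.1 (19.5 to 24.6), with 3 intervals apart.

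Partners of Polycomb also varied. PHF1, a PRC2 accessory protein merged with KIFC1, was at 64.9 FPKM (61.5 to 68.3) in control, with 40.95 (38.3 to 43.6) in shDIS3L2 and 21.25 (19.45 to 23.05) in shHNRNPU, and E2F6, a repressor of variant PRC1, at 12.4, 16.7 and 27.25 FPKM. BAZ1A, an ISWI partner, had 1.60 FPKM in control and 4.59 in shHNRNPU (log2 ratio 1.10). FOXK2, a DNA-binding partner of PR-DUB, was at 31.3 FPKM (29.7 to 32.9), 10.8 (9.75 to 11.9) and 30.15 (27.7 to 32.55), low in shDIS3L2 alone, with GLTSCR1 of non-canonical BAF also lower there (9.51 FPKM in control and 2.99 in shDIS3L2, log2 ratio -1.40). MBD5 was listed at 0 in shDIS3L2, beside 13.0 and 11.45 FPKM in control and shHNRNPU. Its locus overlaps ORC4, and whether this 0 reflects the estimate or the RNA was not tested. C10orf12, merged with LCOR, had a log2 ratio of 1.41 in shHNRNPU against shDIS3L2. The locus bounds of PHF1, E2F6, GLTSCR1 and C10orf12 differed between libraries, as did those of CHD7 above. Whether this moved their values was not tested. SS18L1 was at 3.59 FPKM in control, but in both knockdowns its locus was merged with its neighbour MTG2 (112 and 41.5 FPKM), so these values are not of the same locus.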

How the data were processed

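RNA was sequenced in 3 libraries of PLC cells, 1 per group. Per the file headers, the deposited tables hold FPKM per gene, its bounds and a status flag. The submitters' processing notes name TopHat2 2.0.12, Cufflinks 2.2.1 and hg19; options, strand handling and annotation are not given there. Locus bounds differ between libraries for some genes, and some loci carry several gene names, so their RNA cannot be told apart. The members and gene lists were chosen with earlier results of these data known. Full values were to be given for members past the size rule, for those with intervals apart from control in the same direction in both knockdowns and for paralogs; other members given in full were chosen after their values were seen. Among further subunits, up to 3 were named per comparison and direction past the size rule, and MTA1 was added after its values were seen.

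Genes were matched by name where it had 1 locus in each library (Python 3.11.15, pandas 2.3.3). Log2 ratios used FPKM with a pseudocount of 1, which understates low genes, and loci with a mean of at least 1 FPKM. Values with a status other than OK were not called. Depth was estimated from single-exon genes (GENCODE v29) of at least 2000 bases as FPKM per fragment. The fragment number came from the deposited interval, with a bound taken to lie 2 standard deviations out and error from counting alone. The headers do not give that level, so the depths rest on this assumption. Of estimates up to 20 fragments, 60.6%, 60.5% and 56.8% were whole within 0.02 in control, shDIS3L2 and shHNRNPU, too few for a count test. Paralog intervals treat both genes' errors as independent on the log scale, with each error taken from the upper bound. They do not follow the deposited bounds where a lower bound is 0 (SMARCA2 in control, CBX2 in shHNRNPU). Alternatives were pseudocounts of 0.1 and 5, median-of-ratios rescaling, other filters on mean FPKM, and leaving out loci merged in control or genes listed at 0. Promoter windows are RefSeq's, on GRCh38.p14, and were not joined to hg19 coordinates.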

Additional observations from a re-analysis of the deposited data

How the results depend on the processing

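With 1 library per group, no library could be left out, and no paired analysis was possible because no group has a second library. Members lower by the size rule in shDIS3L2 numbered 1, which became 2 with a pseudocount of 0.1 or after median-of-ratios rescaling (CBX2 added), and 0 with the filter raised to 5 FPKM or without genes listed at 0. Higher members there went from 4 to 1 (BMI1) with a pseudocount of 5. In shHNRNPU, higher members went from 3 to 0 with a pseudocount of 5 and to 0 after rescaling, and lower members from 3 to 7 after rescaling, with SMARCE1, BRD7, PCGF5 and CBX2 added (17.9% of members beside 9.15% of loci). In shHNRNPU against shDIS3L2, lower members went from 4 to 2 with a pseudocount of 5 and to 2 without merged loci. Without merged loci, members with intervals apart went from 10 to 6 (higher, shDIS3L2) and from 11 to 7 (lower, shHNRNPU against shDIS3L2). Merging was read from the control library here, so a locus merged only in a knockdown would not have been left out. The other counts stayed within 1.5 times, the medians moved by less than the median half-width of a member's ratio, and no named member past the size rule changed sign under another pseudocount or rescaling. The count of paralog comparisons of at least 2-fold stayed at 1 with both libraries at their closest bounds. Intervals were widest for SMARCA2 in control, CBX2 in shHNRNPU and CBX7 in shDIS3L2, where the lower bound is 0, and what sets these widths was not tested.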
